A study of Mus musculus with 6 samples.

Results

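The 10 genes described here have been reported in stem or cancer cells as direct targets of the miR-302 family, and they were chosen by name from that literature. They are *Cdkn1a*, *Rbl2*, *Lats2*, *Tgfbr2*, *Bmpr2*, *Rhoc*, *Nr2f2*, *Mbd2*, *Lefty1* and *Lefty2*, 10 of the 55414 genes counted. Of these, 9 passed the filter on low counts, as did 16353 genes in all, and *Lefty2* did not.

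The mRNA came from mouse cells labelled by *Pdx1-Cre* and a tdTomato reporter, taken from the E10.5 trunk, as 3 wild-type (WT) and 3 *mir-302* knockout (KO) libraries. The parents were *Pdx1-Cre* animals and tdTomato animals, each heterozygous for *mir-302*, so WT and KO cells both carry the Cre transgene and the reporter. *mir-302* is missing from the whole KO embryo and not only from the labelled cells, and a Cre driven by the *Pdx1* promoter marks the pancreatic buds together with neighbouring gut. Levels are given as CPM, the counts scaled to library size, after TMM normalization, and values after ± are SDs over the libraries of a genotype (n = 3 in each). KO was compared with WT by edgeR's quasi-likelihood test across all 16353 genes with Benjamini-Hochberg adjustment. Whether a library is 1 embryo or a pool is not given in the sources used here, so the p-values measure only the spread between these libraries.

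A microRNA is a short RNA that guides a silencing complex to messenger RNAs, mostly through pairing between its seed, bases 2 to 8, and matching letters in the 3′UTR. The targeted mRNA is then translated less and often degraded, so that loss of the microRNA can raise the mRNA level of a target. The miR-302 family is abundant in pluripotent cells and early embryos. Its reported targets include brakes on the cell cycle, a kinase of the Hippo pathway, receptors and inhibitors of TGF-β, BMP and Nodal signalling, a small GTPase and regulators of transcription.

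The seed decides which letters in a 3′UTR can pair, so the mature sequences are shown first, from RefSeq on GRCm38.p6, 5′ to 3′ with bases 2 to 8 in capitals. Those of the *mir-302* cluster lie on the plus strand of chromosome 3, where miR-302b-3p is at chr3:127545275-127545297, miR-302c-3p at chr3:127545406-127545427 and miR-302d-3p at chr3:127545665-127545687. miR-302a-3p is named only, because its mature sequence was missing from the set used, so the count of microRNAs by seed below leaves it out.
miR-302b-3p: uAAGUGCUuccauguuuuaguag
miR-302d-3p: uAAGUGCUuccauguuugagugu
miR-302c-3p: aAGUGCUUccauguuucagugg
The seed AAGUGCU is that of 5 of the 1679 mature mouse microRNAs in the table, miR-302b-3p and miR-302d-3p among them. As given there, miR-302c-3p begins 1 base later, which moves its bases 2 to 8 along by 1. The other 3 of the 5 come from chromosome 7, outside the cluster, and their genes are not the ones deleted here.
miR-291a-3p: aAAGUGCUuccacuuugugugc
miR-294-3p: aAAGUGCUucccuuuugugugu
miR-295-3p: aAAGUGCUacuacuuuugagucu

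The sense strand of each longest annotated 3′UTR (GENCODE M21) was searched for letters that pair with this seed. The strongest class is the 8mer, AGCACTTA. The 7mer-m8, AGCACTT, and the 7mer-A1, GCACTTA, are parts of it, the 6mer, GCACTT, is part of all of them, and each match was counted once in its longest class. An 8mer or 7mer was found in 9 of the 10 genes and an 8mer in 7. Among all 21045 annotated 3′UTRs, 17.7% held an 8mer or 7mer and 2.97% an 8mer, and among those of tested genes the shares were 20.6% and 3.54%. The genes were picked because earlier work had called them targets, so the excess of matches describes how they were picked.

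These 30-base windows show the longest match of each gene, with the match in capitals. All are read 5′ to 3′ on the mRNA strand.
Cdkn1a 8mer: ttgaataccgtgggtgtcaaAGCACTTAgt
Rbl2 8mer: atatgtgtatttttcaataaAGCACTTAta
Lats2 8mer: aattagtacagtatggaaagAGCACTTAtt
Tgfbr2 8mer: ctttttatatcaaaacctaaAGCACTTAtt
Lefty1 8mer: gttcactgcactgtatgcgaAGCACTTAca
Lefty2 8mer: cttgtccatcacccagtttaAGCACTTAca
Rhoc 7mer-m8: gccttccccatattacacaccAGCACTTta
Nr2f2 7mer-A1, first: caactcagagatggtggaaatGCACTTAca
Nr2f2 7mer-A1, second: catgacaaaataacactgttgGCACTTAta
Bmpr2 6mer, first: ttaattttgttttttaagttttGCACTTtt
*Mbd2* also had an 8mer, 289 bases after the stop codon in a 3′UTR of 480 bases. In the 3′UTR of *Bmpr2*, 8529 bases long, the only matches of these classes were 3 6mers, although 68.6% of the 3′UTRs within 20% of that length held an 8mer or 7mer. It also held 2 copies of AAGCACT, which pairs with bases 2 to 8 of miR-302c-3p as printed above and overlaps the other motifs in part. This motif was in 6 of the 10 genes, in 12.5% of all annotated 3′UTRs and in 61.1% of those within 20% of the length of *Bmpr2*. For the short 3′UTRs of *Rhoc*, *Mbd2* and *Lefty1*, of 416, 480 and 425 bases, the share of 3′UTRs of like length with an 8mer or 7mer was 5.31%, 6.36% and 5.36%. *Tgfbr2* had the most such matches, an 8mer and 2 7mer-m8, in 6085 bases, where 62.2% of 3′UTRs of like length had at least 1. *Cdkn1a* and *Lats2* each had an 8mer and a 7mer-m8.

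**Figure D1:**
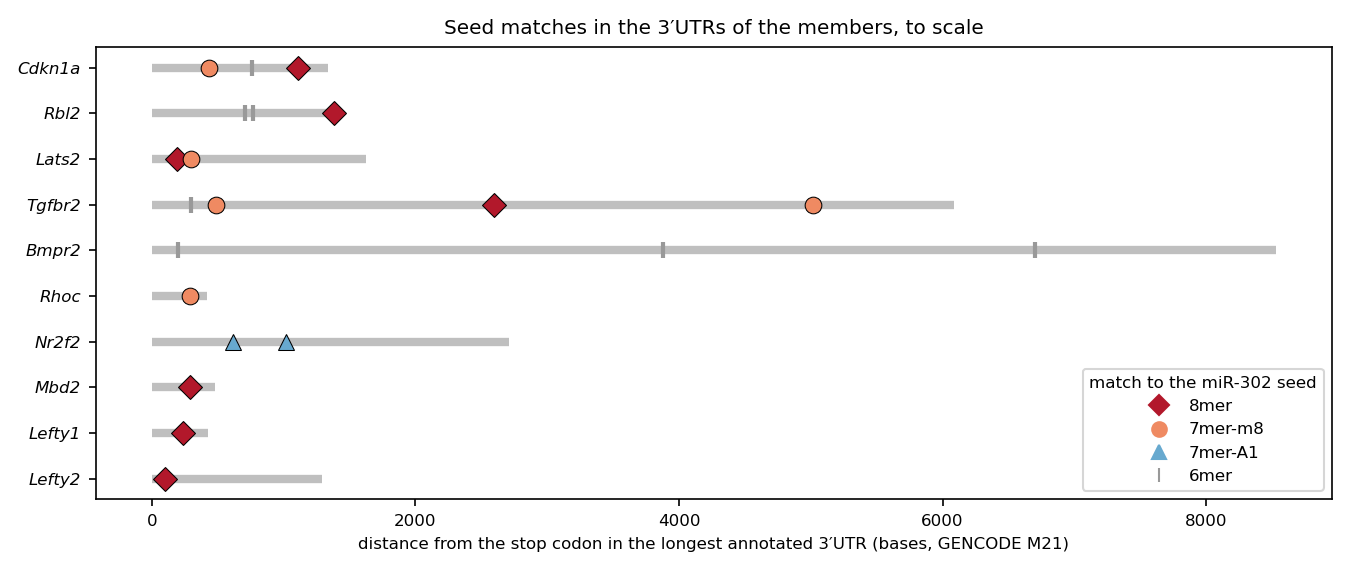
Seed matches along the longest annotated 3′UTR of each of the 10 genes, drawn to scale as the distance in bases from the stop codon. Diamonds mark 8mers, circles 7mer-m8, triangles 7mer-A1 and short lines 6mers. Of these classes *Bmpr2*, with the longest 3′UTR of 8529 bases, has 6mers only.

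None of the 9 tested genes had an adjusted p under 0.05 by edgeR, and none by DESeq2. By edgeR this was so for every gene tested (0 of 16353 called, 0.0%), while DESeq2 called 699 of 14353 genes (4.87%). An unadjusted p under 0.05 was reached by 2 of the 9, *Nr2f2* with higher values in KO and *Bmpr2* with lower values, against 10.4% of all genes tested (6.42% higher and 3.97% lower). DESeq2's unadjusted p was under 0.05 for *Nr2f2* alone of the 9, and its share over all genes is not given here. The log2 fold change was above 0 for 7 of the 9, against 45.6% of all genes, with a median of 0.16 against −0.02 over all genes. When 1 library was left out, the median was 0.084 (without KO replicate 1) to 0.22 (without KO replicate 2), with 0.095 without WT replicate 1 or WT replicate 2, and 5 (without KO replicate 2) to 8 (without WT replicate 1) of the 9 were above 0. The share of all genes above 0 is not given for the fits with 1 library left out. No test was made of the 9 genes as a list.

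**Figure D2:**
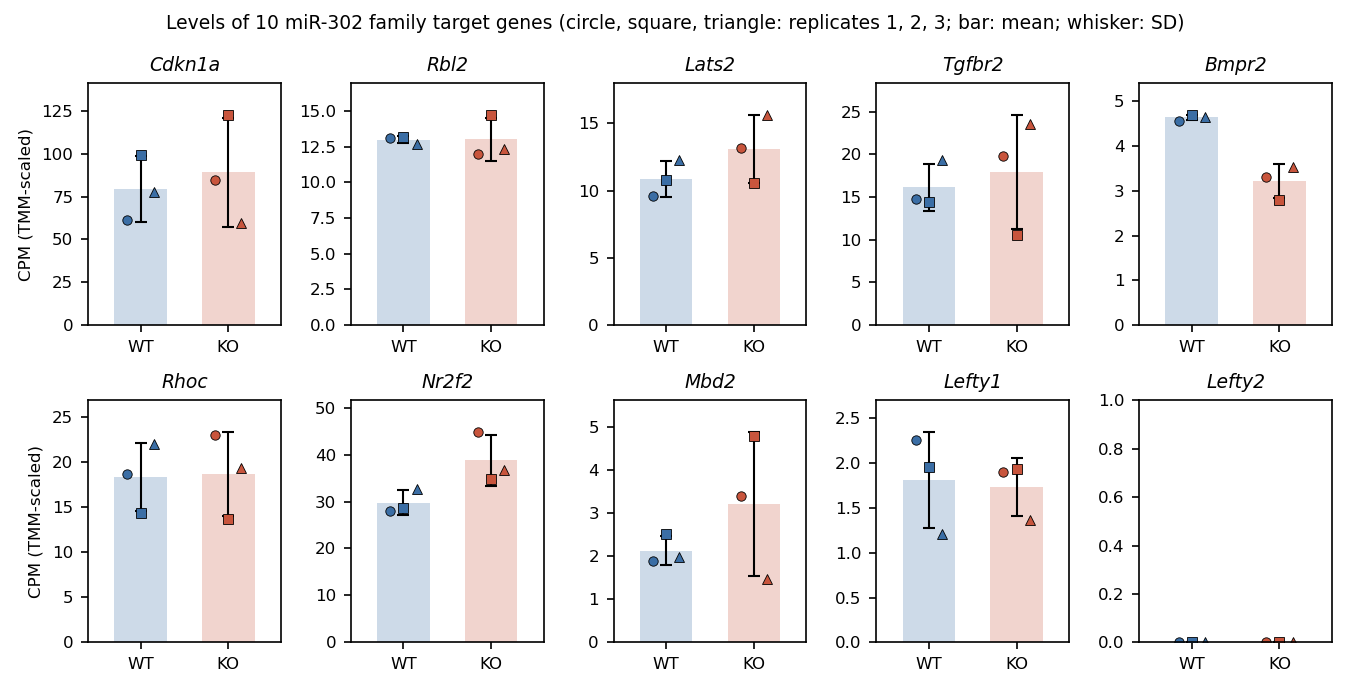
Level of each of the 10 genes in CPM after TMM scaling, on a linear axis from 0. Bars are means and whiskers SDs of the 3 WT or 3 KO libraries, and circles, squares and triangles are replicates 1, 2 and 3. The genotypes are apart for *Bmpr2* and *Nr2f2* and overlap for the other tested genes, and *Lefty2* is at 0 in all 6 libraries.

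*Cdkn1a* (ENSMUSG00000023067.15, chromosome 17) encodes p21, which blocks cyclin-dependent kinases and is induced by p53. It was at 61.1, 99.2 and 77.6 CPM in WT replicates 1, 2 and 3, while the KO libraries in the same order held 84.7, 122.8 and 59.7 CPM. The genotypes overlapped, and both the highest and the lowest library were KO. Mean levels were 79.3 ± 19.1 CPM for WT and 89.1 ± 31.8 CPM for KO. The log2 fold change was 0.17 with a standard error of 0.28, a 95% interval of −0.48 to 0.82 and an edgeR adjusted p of 0.919.

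*Rbl2* (ENSMUSG00000031666.16, chromosome 8) encodes p130, a pocket protein that represses E2F target genes in resting cells. Its WT libraries lay close together, at 13.1, 13.2 and 12.7 CPM. The KO libraries held 11.96, 14.8 and 12.4 CPM, on both sides of the WT values. KO against WT gave a log2 fold change of 0.00 (standard error 0.15, 95% interval −0.36 to 0.36, edgeR adjusted p = 0.999). Its exons share 693 bases with the antisense gene *Aktip*, which was at 95.4 to 112 CPM, well above *Rbl2*. The kit used does not mark strand, so reads from the shared bases cannot be told apart. A second antisense overlap of 892 bases was with *Gm45464*, at no more than 0.707 CPM.

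*Lats2* (ENSMUSG00000021959.17, chromosome 14) encodes a Hippo pathway kinase that restrains YAP. Its WT values were 9.57, 10.8 and 12.2 CPM and its KO values 13.2, 10.54 and 15.6 CPM. KO replicates 1 and 3 were above every WT library and KO replicate 2 was within the WT range. The means were 10.9 ± 1.34 and 13.1 ± 2.54 CPM, so that the log2 fold change was 0.27 (standard error 0.20, 95% interval −0.20 to 0.74, edgeR adjusted p = 0.748). It was 0.16 without KO replicate 3 and 0.42 without KO replicate 2. An annotated gene on the same strand, *Gm49361*, shares 2955 of its exonic bases and had 0 counts, so how reads in these bases were assigned can affect its level.

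*Tgfbr2* (ENSMUSG00000032440.14, chromosome 9) encodes the type II TGF-β receptor, which binds the ligand and activates the type I receptor. It was at 14.8, 14.4 and 19.3 CPM in WT and at 19.8, 10.54 and 23.5 CPM in KO. KO held both the highest and the lowest value, and the low one was KO replicate 2. Between genotypes the log2 fold change was 0.16 (standard error 0.30, 95% interval −0.54 to 0.85, edgeR adjusted p = 0.932). In KO replicate 2 the 14 mesenchyme markers summed to 132 CPM, against 1235 and 1165 CPM in the other KO libraries and 282 to 1259 CPM in WT, and 8 of the 14 were at 0 there. The 12 endothelium markers summed to 13.2 CPM in KO replicate 2, where 6 were at 0, and to 47.2 to 149 CPM in the other libraries. Much of these sums was *Sox17*, at 0.342 CPM in KO replicate 2 and 18.1 to 108 CPM in the others. *Pecam1* and *Egfl7*, at 1.42 and 10.9 CPM in KO replicate 2, lay within the range of the other libraries. The part of these cells in the *Tgfbr2* values was not tested. In such bulk libraries, fewer cells of a type and less RNA per cell cannot be told apart.

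*Bmpr2* (ENSMUSG00000067336.7, chromosome 1) encodes the type II receptor for bone morphogenetic proteins. It was at 4.57, 4.69 and 4.66 CPM in WT and at 3.32, 2.79 and 3.54 CPM in KO. Every KO library lay below every WT library, which was so for 7.99% of all genes tested. Mean levels were 4.64 ± 0.0627 CPM for WT and 3.22 ± 0.383 CPM for KO. The log2 fold change was −0.53 (standard error 0.22, 95% interval −1.04 to −0.02), with an edgeR p of 0.0442 before adjustment and 0.457 after it. The values rest on 49 to 97 counts a library, the two-sided exact permutation test gave 0.1, the smallest p that 3 libraries against 3 allow, and DESeq2's adjusted p was 0.577. The unadjusted edgeR p was above 0.05 whichever library was left out, and the log2 fold change was then −0.57 to −0.42.

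*Lefty1* (ENSMUSG00000038793.9) and *Lefty2* (ENSMUSG00000066652.6), both on chromosome 1, encode secreted inhibitors of Nodal. *Lefty1* was at 2.26, 1.96 and 1.21 CPM in WT and at 1.90, 1.94 and 1.36 CPM in KO. The KO values lay within the WT range, with a log2 fold change of −0.06 (standard error 0.35, 95% interval −0.88 to 0.76, edgeR adjusted p = 0.977). These levels stand for 25 to 51 counts a library. *Lefty2* had 0 counts in all 6 libraries, which allows up to 3 counts, or 0.112 to 0.171 CPM depending on the library. The coding sequences of these genes are very alike, so how their shared reads were assigned makes both values uncertain.

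*Rhoc* (ENSMUSG00000002233.14, chromosome 3) encodes a small GTPase that drives actin contraction and cell movement. It was at 18.7, 14.4 and 22.0 CPM in WT and at 23.0, 13.7 and 19.4 CPM in KO. The genotypes covered the same range, and the log2 fold change was 0.03 (standard error 0.24, 95% interval −0.54 to 0.59, edgeR adjusted p = 0.987).

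*Nr2f2* (ENSMUSG00000030551.15, chromosome 7) encodes the orphan nuclear receptor COUP-TFII, a regulator of mesenchyme, vein and endoderm development. It was at 27.95, 28.6 and 32.7 CPM in WT and at 44.8, 34.7 and 36.7 CPM in KO. All 3 KO libraries lay above the WT libraries, which was so for 8.36% of all genes tested. Mean levels were 29.8 ± 2.59 CPM for WT and 38.8 ± 5.36 CPM for KO. The log2 fold change was 0.38 (standard error 0.15, 95% interval 0.04 to 0.72), or 1.3-fold, with an edgeR p of 0.0329 before adjustment and 0.403 after it. DESeq2's adjusted p was 0.206 and the two-sided exact permutation test gave 0.1. The unadjusted edgeR p was above 0.05 without WT replicate 1, without WT replicate 2 or without KO replicate 1, where the log2 fold change was 0.34, 0.37 and 0.27. Mesenchyme markers summed to 1235, 132 and 1165 CPM in KO replicates 1, 2 and 3, and their part in the *Nr2f2* values was not tested. The exons of *Nr2f2* share 643 bases with an antisense transcript, *B130024G19Rik*, at 1.98 to 5.97 CPM.

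*Mbd2* (ENSMUSG00000024513.17, chromosome 18) encodes a protein that binds methylated DNA and recruits the NuRD complex. It was at 1.89, 2.51 and 1.99 CPM in WT and at 3.39, 4.79 and 1.47 CPM in KO. KO replicates 1 and 2 were above the WT range and KO replicate 3 was below it. The log2 fold change of 0.59 was the highest of the 9, with a standard error of 0.44, a 95% interval of −0.43 to 1.62 and an edgeR adjusted p of 0.748. Without KO replicate 3 it was 0.97, with an unadjusted edgeR p under 0.05, and without KO replicate 2 it was 0.23.

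**Figure D3:**
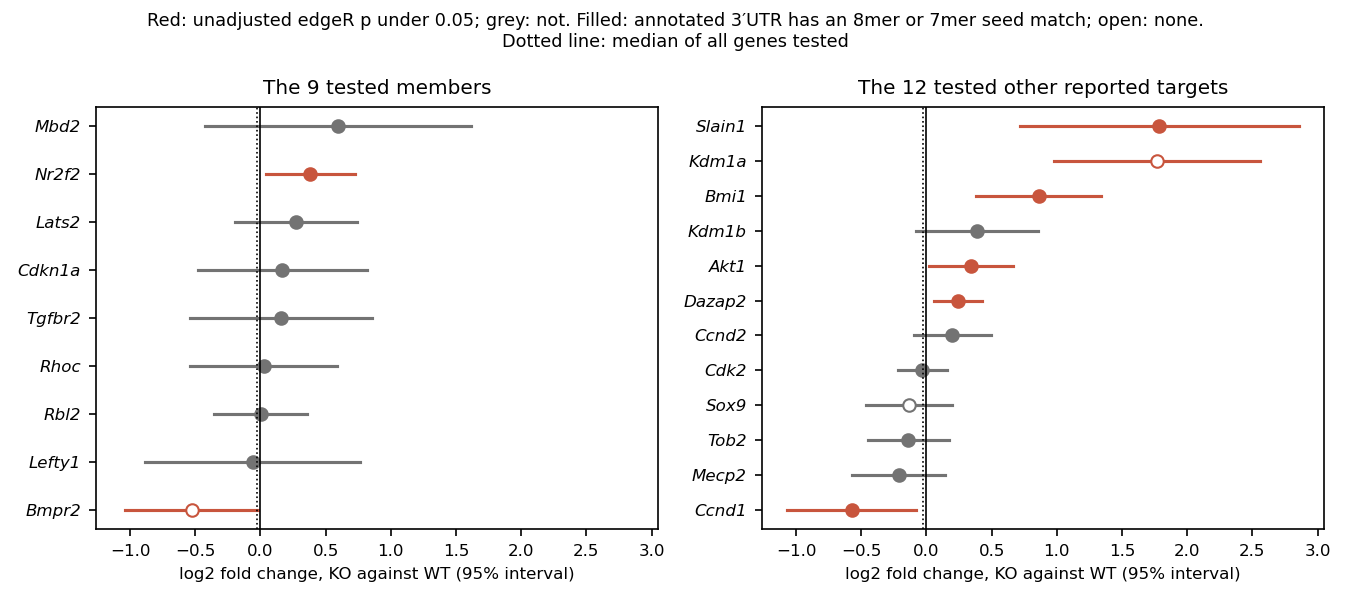
Log2 fold change of KO against WT with its 95% interval, for the 9 tested genes (left) and for 12 other reported targets (right). Red marks an unadjusted edgeR p under 0.05, filled points a 3′UTR with an 8mer or 7mer, and the dotted line the median of all genes tested at −0.02. On the left only *Nr2f2* and *Bmpr2* are red, on opposite sides of 0.

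Compared per length, as CPM per kb of annotated exon, the WT levels of the 10 genes ran from *Cdkn1a* at 22.3 to *Lefty2* at 0. *Rhoc* followed at 11.4, *Nr2f2* at 3.45, *Tgfbr2* at 1.97, *Rbl2* at 1.72 and *Lats2* at 1.56 CPM per kb. *Lefty1* was at 1.03, *Mbd2* at 0.663 and *Bmpr2* at 0.258 CPM per kb. The ranges of WT libraries overlapped between *Lats2* and both *Rbl2* and *Tgfbr2*, and between *Lefty1* and *Mbd2*, so the order within these pairs is open to the spread between libraries. Among all tested genes *Cdkn1a* stood at the 81.7th percentile of WT level per kb, *Nr2f2* at the 44.5th and *Bmpr2* at the 7.0th.

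**Figure D4:**
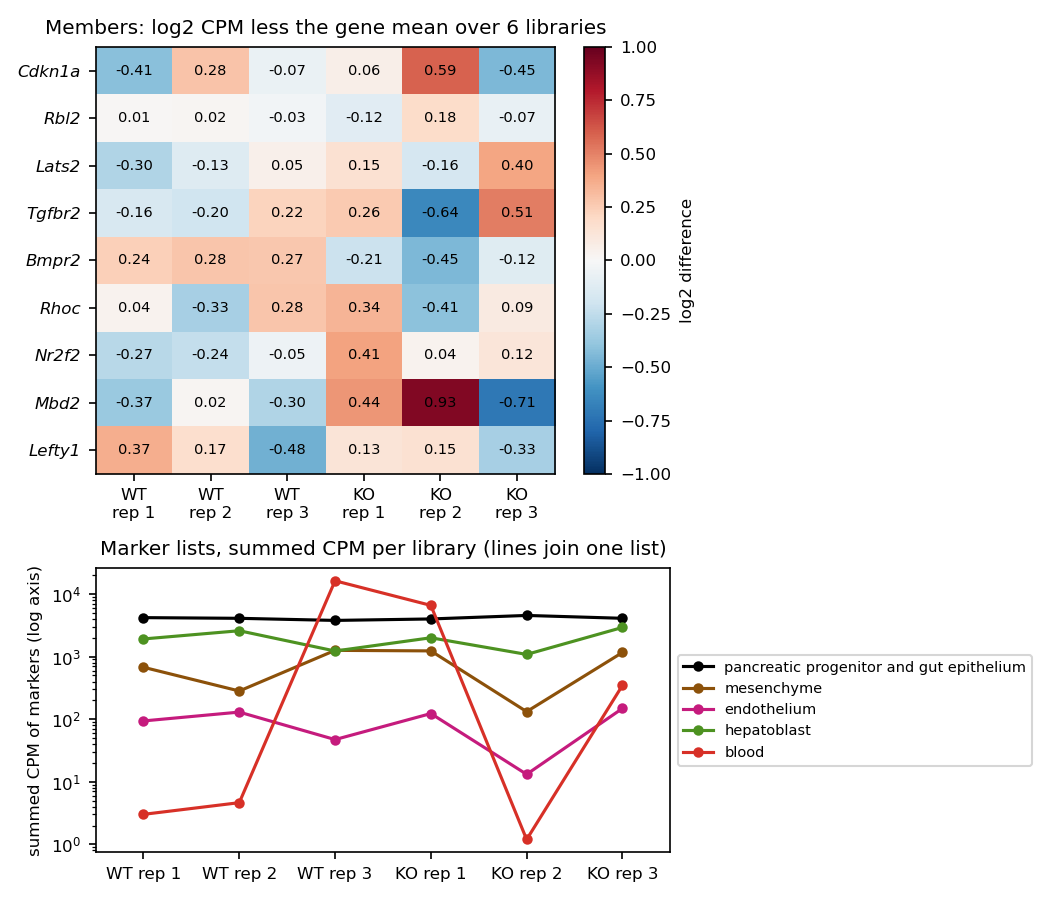
Top, log2 CPM of the 9 tested genes in each library less the mean of that gene over the 6 libraries. Bottom, summed CPM of marker lists in each library on a log axis. KO replicate 2 holds the highest *Cdkn1a* and *Mbd2* and the lowest *Tgfbr2*, *Rhoc* and *Bmpr2*, and the lowest mesenchyme and endothelium sums, 132 and 13.2 CPM.

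The libraries held 17352498 to 26634523 counts. The 15 markers of pancreatic progenitors and gut epithelium summed to 3790 to 4551 CPM and none was at 0 in any library. Of the 15, 4 had an unadjusted edgeR p under 0.05, all with higher values in KO, beside 6.42% of all genes tested. DESeq2 called 2, *Gata4* and *Gata6*, both higher in KO, beside 4.22% of all genes called higher. These 2 were named after their values were seen, and their log2 fold changes were 0.63 and 1.33. The part of these markers in the values of the 10 genes was not tested. *Pdx1* was at 73.1 to 108 CPM, while *Ptf1a* and *Nkx6-1* reached at most 4.96 and 4.73 CPM. Hepatoblast markers summed to 1084 to 2925 CPM, with none at 0 in any library. Neural markers summed to 78.2 to 243 CPM, but 3 or 4 of the 12 were at 0 in each library. Only 5 of the 12 neural markers passed the filter on low counts. Which cells the transcripts of these lists came from was not tested. Blood markers summed to 16293 CPM in WT replicate 3, 6587 CPM in KO replicate 1 and 347 CPM in KO replicate 3, and to at most 4.64 CPM in the other libraries. Without WT replicate 3 and KO replicate 1, none of the 9 genes had an unadjusted edgeR p under 0.05, and the log2 fold changes of *Nr2f2* and *Bmpr2* were 0.36 and −0.52. The share of all genes in that fit is not given here. The cluster genes had 0 counts apart from 2 counts of *Mir302d* in KO replicate 3, so these counts cannot check the genotype labels.

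The GC content of transcripts moved with genotype across the tested genes with a protein-coding transcript in GENCODE M21, the only ones scored. Of 3635 tested genes holding 200 consecutive bases with a GC content of 75% or more, 21.9% had an unadjusted edgeR p under 0.05 with higher values in KO and 2.75% with lower values. Of 10210 genes without them, the shares were 1.95% and 4.47%. The median log2 fold change was 0.125 for genes with such a stretch and −0.0434 for genes without, beside 0.16 for the 9 genes. Of the 9 genes, 6 held such a GC-rich stretch, beside 3635 genes with and 10210 without one among all tested genes scored. The same counts stand beside those of the lists below. The GC content of the richest stretch was 81.5% in *Nr2f2*, 77.0% in *Bmpr2* and 88.0% in *Mbd2*, against 68.0% in *Cdkn1a*. Among the progenitor and gut markers with an unadjusted edgeR p under 0.05, it was 77.0% in *Gata4*, 79.0% in *Gata6*, 81.5% in *Mnx1* and 68.5% in *Krt18*. The part of GC content in these values was not tested.

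For the gene with the smallest p, *Nr2f2*, the tested genes with the most similar course over the 6 libraries were *Wdr89*, *Rasgrp2* and *Tmem62*. The mean absolute difference of their centred log2 CPM from that of *Nr2f2* was 0.0601, 0.0618 and 0.0618. They are the nearest of 16353 genes over only 6 libraries.

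A second group of 13 genes also reported as targets of this seed family was listed beside the 10, and 12 of these were tested. *Fgf15*, an endocrine growth factor of the gut, had 0 counts in every library. Unadjusted edgeR p was under 0.05 for 6 of the 12, 5 with higher and 1 with lower values in KO, beside 6.42% and 3.97% of all genes tested, and none passed adjustment. DESeq2 called 3 of the 12, all higher in KO, against 4.22% of all genes called higher. Their median log2 fold change was 0.22. A seed match of 8mer or 7mer class was found in 10 of the 12 and in 5 of the 6, and an 8mer in none.

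*Kdm1a*, which encodes the histone demethylase LSD1, was at 25.9, 30.7 and 21.8 CPM in WT and at 117.8, 102.4 and 46.0 CPM in KO. The lowest KO value exceeded the highest WT value, and the log2 fold change was 1.77 (standard error 0.34). Its adjusted p was 0.132 by edgeR, 0.0213 by edgeR with no filter on low counts and 8.39e-07 by DESeq2. Its longest annotated 3′UTR, of 308 bases, held no 8mer or 7mer. *Bmi1*, a Polycomb protein that represses the *Cdkn2a* locus, was at 20.4 ± 4.04 CPM in the WT libraries and 37.0 ± 7.12 CPM in KO ones, which gave a log2 fold change of 0.86 with an adjusted p of 0.163 by edgeR and 0.00205 by DESeq2. *Slain1*, a microtubule-binding protein, was at 1.22 ± 0.464 and 4.22 ± 1.75 CPM, so that the log2 fold change was 1.79 with an adjusted p of 0.185 by edgeR and 0.0116 by DESeq2. *Dazap2* was at 342 ± 4.23 and 404 ± 23.9 CPM, so that the log2 fold change was 0.24 with adjusted p of 0.299 by edgeR and 0.0929 by DESeq2. The other 2 of the 6 were chosen after their values were seen. They were *Akt1*, a growth factor signalling kinase, with a log2 fold change of 0.34, and *Ccnd1*, which encodes cyclin D1, with −0.57. Without KO replicate 2 they were 0.23 and −0.83, and without KO replicate 3 that of *Ccnd1* was −0.38. All 5 with higher values had a GC-rich stretch as defined above, at 79.5% to 84.5% GC, while *Ccnd1* did not, and 6 of the 12 had one. With WT replicate 3 and KO replicate 1 left out, 2 of the 12 had an unadjusted edgeR p under 0.05, and the share of all genes in that fit is not given here.

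The partners of the 10 genes in their pathways were read from 7 lists of 95 genes, of which 94 were in the table and 81 tested (*Lin54* was not analysed here). Unadjusted edgeR p was under 0.05 for 11 of the 81, 8 with higher and 3 with lower values in KO, beside 10.4% of all genes. The same share of 10.4% stands beside the count of each single list below. None of the 81 passed adjustment, and DESeq2 called 6, all of them higher, where it called 4.22% of all genes higher. The median log2 fold change of the 81 was 0.02. All 8 with higher values had a GC-rich stretch, as did 0 of the 3 with lower values and 35 of the 81. Without WT replicate 1 the count was 7, and the share of all genes in that fit is not given here.

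Around *Cdkn1a* and *Rbl2*, 1 of 12 partners had a p under 0.05. This was *E2f5*, a repressive E2F that binds p130, which was at 26.8 ± 7.30 CPM in the WT libraries and 52.1 ± 9.83 CPM in KO ones, with a log2 fold change of 0.96 and adjusted p of 0.160 by edgeR and 0.000903 by DESeq2. *Rbl1*, the closest paralog of *Rbl2*, was at 43.8 ± 4.80 and 48.7 ± 5.71 CPM. Of 13 genes for p53, which induces *Cdkn1a*, and for targets of p53, 1 had a p under 0.05. This was *Trp53inp1*, which promotes p53-dependent cell death, with a log2 fold change of −0.58 and an edgeR adjusted p of 0.412, and −0.35 without WT replicate 2.

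Around *Lats2*, 1 of 16 Hippo partners had a p under 0.05. This was *Yap1*, the coactivator that LATS kinases restrain, at 8.20, 14.3 and 15.6 CPM in WT and at 32.2, 25.01 and 21.01 CPM in KO. The genotypes did not overlap, with a log2 fold change of 1.04 and adjusted p of 0.201 by edgeR and 0.00555 by DESeq2. The paralog *Lats1* was at 23.2 ± 4.79 and 24.2 ± 6.54 CPM, where the log2 fold change was 0.06.

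Of 10 tested TGF-β and BMP receptors beside *Tgfbr2* and *Bmpr2*, 2 had a p under 0.05, both with higher values in KO. *Bmpr1a*, the type I receptor that works with BMPR2, was at 43.9, 60.7 and 38.4 CPM in WT and at 99.9, 74.3 and 78.2 CPM in KO. Its log2 fold change of 0.82 had an adjusted p of 0.163 by edgeR and 0.00168 by DESeq2, whereas that of *Bmpr2* was −0.53. *Acvr2b*, an activin and Nodal receptor, had a log2 fold change of 0.83 with adjusted p of 0.297 by edgeR and 0.0349 by DESeq2. *Tgfbr1*, the partner of *Tgfbr2*, was at 200 ± 17.6 and 183 ± 41.5 CPM, where the log2 fold change was −0.13.

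Downstream, 3 of 12 Smads and target genes had a p under 0.05. *Smad6*, an inhibitory Smad induced by BMP, was at 3.11, 6.59 and 5.29 CPM in WT and at 20.7, 14.3 and 8.92 CPM in KO, a log2 fold change of 1.55 with adjusted p of 0.171 by edgeR and 0.00135 by DESeq2. *Smad1*, which carries the BMP signal, had a log2 fold change of 0.41, and *Id2*, a target of that signal, of −0.30, with edgeR adjusted p of 0.457 and 0.400. That of *Smad1* was 0.27 without WT replicate 3. Of 9 Nodal pathway genes beside the Lefty pair only 3 were tested, and none had a p under 0.05. The smallest p was that of *Cer1*, a secreted Nodal and BMP inhibitor, with a log2 fold change of 0.40 and an edgeR adjusted p of 0.860. It was 0.16 without WT replicate 1 and 0.84 without WT replicate 2.

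Of 15 relatives of *Nr2f2* and *Mbd2* and NuRD subunits, 3 had a p under 0.05. *Nr2f6*, another orphan nuclear receptor, had a log2 fold change of 1.14 with adjusted p of 0.190 by edgeR and 0.00248 by DESeq2. *Gatad2a* and *Chd4*, both NuRD subunits, had log2 fold changes of 0.35 and −0.36 with edgeR adjusted p of 0.382 and 0.329. *Nr2f1*, the closest paralog of *Nr2f2*, had 0 to 24 counts a library and was not tested, and *Mbd3*, the paralog of *Mbd2*, was at 342 ± 44.9 and 413 ± 34.9 CPM.

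**Figure D5:**
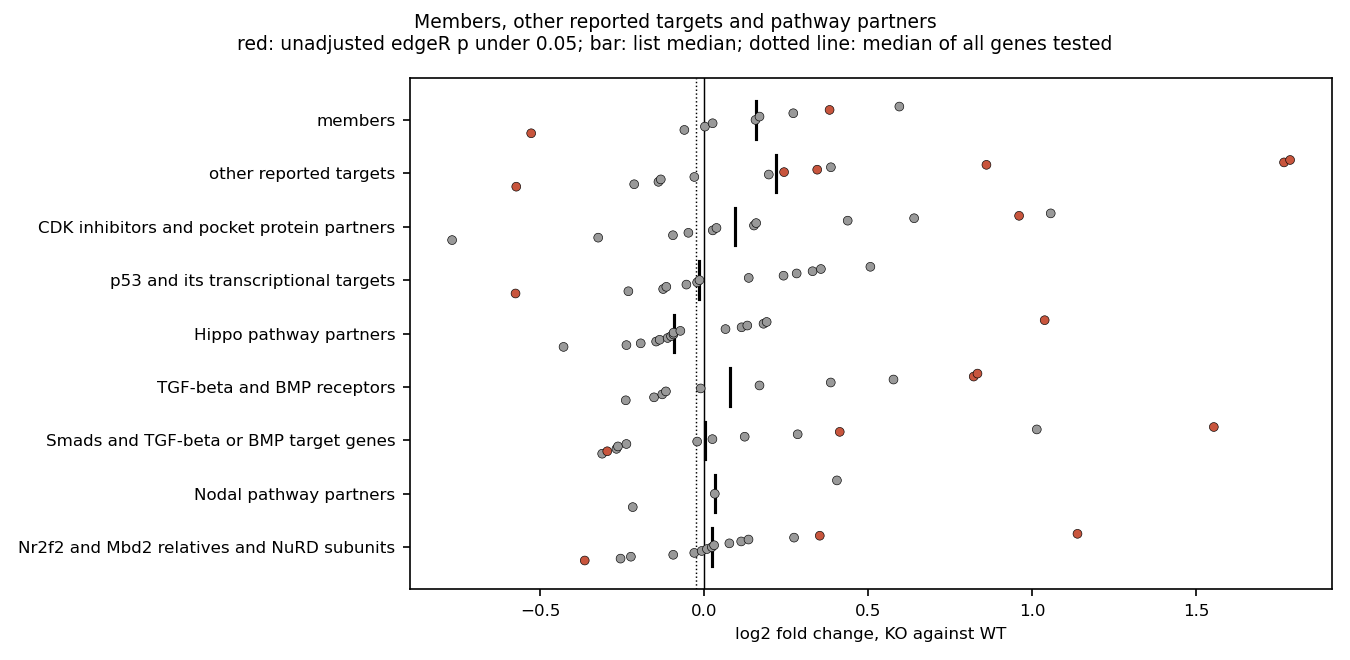
Log2 fold change of KO against WT for the 9 tested genes, 12 other reported targets and the 7 lists of pathway partners. Each point is 1 gene, red where the unadjusted edgeR p was under 0.05, black bars are list medians and the dotted line is the median of all genes tested. The medians of the 9 genes and of the other targets are 0.16 and 0.22, and that of all partners together is 0.02.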

How the data were processed

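The mRNA of 6 libraries was read as pairs of 150 bp after SMART-seq v4 cDNA synthesis and Nextera XT library preparation. The authors removed low-quality sequences, aligned reads to GRCm39 with STAR and deposited raw counts per gene from GenomicAlignments. Gene annotation, strand setting and tool versions are not given in the sources used here. Groups and replicate numbers came from the deposited sample titles.

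Genotypes were compared with edgeR 4.0.16 (R 4.3.3), using filterByExpr, TMM, genotype as the sole term and adjustment over all genes. The F statistic of each fold change gave its standard error. DESeq2 1.42.0 was used with default settings on genes with at least 1 count. This row rule, which an earlier analysis of the counts used, was settled after its outcome and others had been seen: 701 genes are called when all rows are kept and 718 when rows under 10 counts are dropped. Both tools were also run on simulated counts. These held no shift by GC content or cell mixture, so that check cannot say which tool is right here.

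The 10 genes and all lists were chosen with earlier results of these data known. All 10 are named. From the other lists the genes named are those with an unadjusted p under 0.05, at most 4 a list by smallest p, otherwise the gene with the smallest p, together with paralogs. 3′UTRs, exon lengths and GC-rich stretches came from GENCODE M21 on GRCm38, so no gene coordinates are given. Symbols were found for 94.0% of identifiers. Alternatives were another test, RLE scaling, no filter, a replicate block and libraries left out. Intervals rest on the spread between libraries and do not cover amplification error that differs by genotype. Small RNA data were not analysed here. 1 planned list of partners is not reported here.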

Additional observations from a re-analysis of the deposited data

How the results depend on the processing

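No setting gave any of the 9 genes an adjusted p under 0.05. Beside 2 genes with an unadjusted p under 0.05 in the reported fit, DESeq2 gave 1, no filter on low counts gave 1, leaving out WT replicate 3 and KO replicate 1 gave 0, and leaving out 1 library gave 0 to 2. The shares of all genes under these other settings are not given here. The counts in this section therefore cannot be read as particular to the genes listed. Whether equal replicate numbers mark paired libraries is not given in the sources used here. Same-numbered libraries had correlations of −0.211, 0.251 and 0.0779 in their deviations from the group means, and differently numbered ones −0.307 to 0.336. So few libraries cannot settle whether they are paired. With the replicate block the count was 0 and the log2 fold change of *Rbl2* −0.0041. Between WT replicate 2 and KO replicate 1, which share a library code whose meaning is not stated, the median log2 difference of the 9 genes was 0.28. In this pair 5 of the 9 were above 0, beside 7 in the reported fit, and *Cdkn1a* and *Rbl2* were at −0.23 and −0.14. The count among the 12 other targets was 2 without WT replicate 3 and KO replicate 1, and their median was 0.16 to 0.30 when 1 library was left out. Among the 81 partners the count was 7 to 15, from 11, when 1 library was left out. Signs of small log2 fold changes turned when 1 library was left out. *Cdkn1a* ran from −0.11 (without KO replicate 2) to 0.42, *Rbl2* from −0.080 (without KO replicate 2) to 0.074, *Tgfbr2* from −0.048 (without KO replicate 3) to 0.44, and *Rhoc* from −0.14 (without KO replicate 1; −0.10 without WT replicate 2) to 0.22. *Lefty1* ran from −0.25 to 0.13 (without WT replicate 1), and was 0.02 without WT replicate 2 and 0.12 without KO replicate 3. *Lats2*, *Bmpr2*, *Nr2f2* and *Mbd2* kept their direction in all 12 alternatives. The cause of these shifts was not tested. Depth limits *Lefty1*, *Lefty2*, *Mbd2* and *Bmpr2* most.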
